A study of Homo sapiens with 4 samples.

Results

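REH is a human line of acute lymphoblastic leukaemia (ALL), derived from B-cell precursors, without the translocation t(4;11), and its array is described here against those of 3 other ALL lines. It is 1 of 4 arrays in the series, 1 per line. RS4;11 and SEM carry t(4;11), which rearranges the MLL gene (KMT2A), and NALM6, like REH, lacks it. All 4 lines are labelled as precursor B-cell ALL, grew in RPMI medium with 10% fetal bovine serum to sub-confluency without a further treatment, and gave total RNA for Affymetrix whole-transcript arrays. Each line stands for a single patient's leukaemia kept in culture, and REH has no replicate array. Levels are log2 values normalized by the submitters, of 18377 genes with 1 probe set each (the brightest where a gene had several). Each gene was placed by its separation, that is REH minus the highest of the other lines, or the lowest of the others minus REH. A separation of 2 on the log2 scale is 4-fold.

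REH is known for the ETV6-RUNX1 fusion of t(12;21), the most common gene fusion of childhood ALL. The fusion joins the N-terminal part of ETV6, an ETS-family repressor, to nearly all of RUNX1, a Runt-domain transcription factor needed for blood formation, and keeps the Runt domain that binds DNA. Leukaemias with it usually have a pre-B immunophenotype with CD10, and a characteristic set of genes at higher levels than in other ALL types.

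The arrays were alike in overall level, with medians over all probe sets from 6.40 to 6.46. Over genes, REH correlated best with NALM6 (Pearson r 0.945) and least with SEM (0.929), a description of arrays that share a normalization. At least 4-fold apart from NALM6 were 360 genes above (1.96%) and 246 below (1.34%). The counts were 355 (1.93%) and 282 (1.53%) from RS4;11, and 347 (1.89%) and 409 (2.23%) from SEM. The precursor B label held for REH, in which 9 of 11 measured markers exceeded the median of all gene values (6.75). They include PAX5 (11.61), the B-lineage identity factor, and CD79A (12.35), the signalling chain of the B-cell receptor. The exceptions were the stem cell antigen gene CD34 (4.80) and VPREB1 (5.51), a part of the surrogate light chain. CD34 was as dim in the other lines, at 4.73 to 4.84, near the 25th percentile of each array (4.97 to 5.02). Markers of other cell types had medians in REH of 5.62 (T and NK cell), 5.76 (myeloid), 5.50 (erythroid and megakaryocyte) and 5.73 (stromal and epithelial). The T-cell genes CD3D and CD3E (4.75 and 4.87), the monocyte gene CD14 (4.62) and the epithelial gene EPCAM (5.06) were at that dim level. Not all such markers were dim. Above the median of all gene values in REH were 3 of 8 measured T and NK cell markers and 1 of 6 myeloid ones. So were 2 of 6 stromal and epithelial markers, and 0 of 5 erythroid and megakaryocyte ones. Examples are LCK (7.36), CD7 (7.16), NKG7 (7.11), KRT18 (8.49) and PDGFRB (8.13).

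MicroRNA genes were rarely separated in REH, and the sequences of the few that were are shown to tell them apart. MicroRNAs pair with target transcripts mainly through bases 2 to 8, the seed. Of 173 measured microRNA genes, 1 lay at least 2-fold above every other line in REH and 3 lay at least 2-fold below. The share of all genes at this separation was 2.19% above and 1.25% below, so that these few are no result about microRNA genes as a group. The mature arms of these genes, from RefSeq (GRCh38.p14), are printed 5′ to 3′ with the seed in capitals, 1 arm per gene.
hsa-miR-217-5p: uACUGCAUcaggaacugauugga
hsa-miR-181b-5p: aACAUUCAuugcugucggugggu
hsa-let-7g-5p: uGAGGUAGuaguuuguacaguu
hsa-miR-221-3p: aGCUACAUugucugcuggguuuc
The 4 seeds are all different. The microRNA-217 arm lies at chr2:55983020-55983042, the microRNA-181b arm at chr1:198858925-198858947, the let-7g arm at chr3:52268336-52268357 and the microRNA-221 arm at chrX:45746180-45746202, each on the minus strand.

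MIR217 was at 7.61 in REH and at 4.71 in RS4;11, 4.56 in SEM and 4.50 in NALM6. It rose in REH by limma's test of REH against the other lines (log2 difference from their mean 3.02, SE 0.14, adjusted p = 0.032), and REH stood clear of lines that were all dim. Its chromosome 2 neighbour MIR216A, picked out after its values were seen, was at 5.78 against 4.61 to 4.78, just under 2-fold. In the other direction, MIRLET7G, a let-7 family gene, was at 5.55 in REH against 8.08 in RS4;11, 7.18 in SEM and 7.05 in NALM6 (adjusted p = 0.405). MIR181B1, a lymphoid microRNA gene, was at 9.04 against 10.60, 10.48 and 10.52 (adjusted p = 0.0625). MIR221 was at 5.21 against 7.68, 6.34 and 6.67 (adjusted p = 0.546). REH was thus lowest for these 3 genes, but none of them passed the test. Probe sets of such genes do not tell mature arms from precursors.

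Over all 18377 genes, limma called 88 higher in REH (0.479%) and 31 lower (0.169%) at an adjusted p under 0.05. REH lay at least 4-fold above every other line in 139 genes (0.756%) and at least 4-fold below in 88 (0.479%). At 8-fold the counts were 58 (0.316%) and 54 (0.294%). Of the genes called, 76 of the higher and 29 of the lower were also separated 4-fold. Because REH has 1 array, the fit takes its spread from the other 3 lines and assumes that REH varies like them, so that it favours genes with nearly equal levels there. Without any 1 of the other lines 1 residual degree of freedom was left and no gene passed limma's threshold (smallest adjusted p 0.27 without RS4;11, 0.207 without SEM and 0.115 without NALM6). Unadjusted p-values under 0.05 then numbered 1459, 1460 and 2585. With all lines they were 1035 higher (5.63%) and 840 lower (4.57%). An exact permutation test of 1 array against 3 cannot go below p = 0.25. Lines differ in donor, culture and array at once, and these cannot be told apart here. At the edge of the 4-fold separation lay SHOX2 (2.01) just inside and ZFP90 (1.99) just outside among higher genes, and FGF9 (2.01) and LGR6 (2.0) among lower ones.

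Most genes that stood high in REH were below the median level elsewhere, which the rule of separation itself favours. In 120 of the 139 genes separated upward by 4-fold, the other lines all lay below the median of all gene values. The 20 farthest above ranged from 9.05 to 11.50 in REH and from 4.54 to 6.49 elsewhere, and 15 of them passed limma's test (adjusted p from 0.0245 to 0.0359). IGSF10, an immunoglobulin-superfamily gene, led them, at 11.19 in REH, 4.61 in RS4;11, 4.58 in SEM and 4.61 in NALM6. Its difference from their mean was 6.59 (SE 0.10, adjusted p = 0.0245). Levels this low lie below the 25th percentile of each array, so that sizes and ranks against them hold for the deposited scale and no fold is given. SEMA6A, which encodes a transmembrane semaphorin of axon guidance, was at 10.31 against 4.84, 4.96 and 4.93. The other lines were within 0.13 of each other for this gene, and REH rose above them (adjusted p = 0.0245).

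Among the genes farthest above were some known from neurons, given as examples with no count of such genes. PCLO, the scaffold protein piccolo of the presynaptic active zone, was at 11.28 in REH and 4.54, 4.90 and 4.61 in RS4;11, SEM and NALM6 (adjusted p = 0.0249). NETO1, an auxiliary subunit of glutamate receptors, was at 10.71 against 4.83, 4.74 and 4.69, and GRIK5, a kainate receptor subunit, at 9.49 against 5.23, 5.25 and 5.29. Both rose (adjusted p = 0.0245). GABRA4 and GABRA3 encode alpha subunits of the GABA-A receptor. GABRA4 was at 10.37 in REH and at 5.40 in SEM, the highest of the others (adjusted p = 0.0616), and GABRA3 at 10.77 against 6.49 in SEM (adjusted p = 0.211). Both were high in REH alone and did not pass, though GABRA4 did with dim genes left out (adjusted p = 0.047).

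Other genes that rose in REH encode proteins of the cell surface, matrix and signalling. THSD7A, a membrane protein with thrombospondin repeats, was at 9.44 against at most 4.76, and TSPAN7, a tetraspanin, at 10.42 against at most 5.51. NID2, a basement membrane linker, was at 9.76 against at most 5.22. ARHGAP29, a GTPase-activating protein gene, was at 9.06 against at most 4.76, and RNF43, a ubiquitin ligase that removes Wnt receptors from the surface, at 9.05 against at most 4.85. RERGL, a RAS-like gene, was at 10.01 against at most 5.74. PRDM7, a close copy of the meiotic histone methyltransferase gene PRDM9, was at 9.51 against at most 5.20, while the probe set of PRDM9 itself was at 4.52 in REH. AFF2 and MTMR8 passed too, at 9.22 against at most 5.06 and at 8.54 against at most 4.56 (adjusted p = 0.0245 for both). AFF2 belongs to the same family of elongation factors as AFF1, the partner of MLL in t(4;11).

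**Figure D1:**
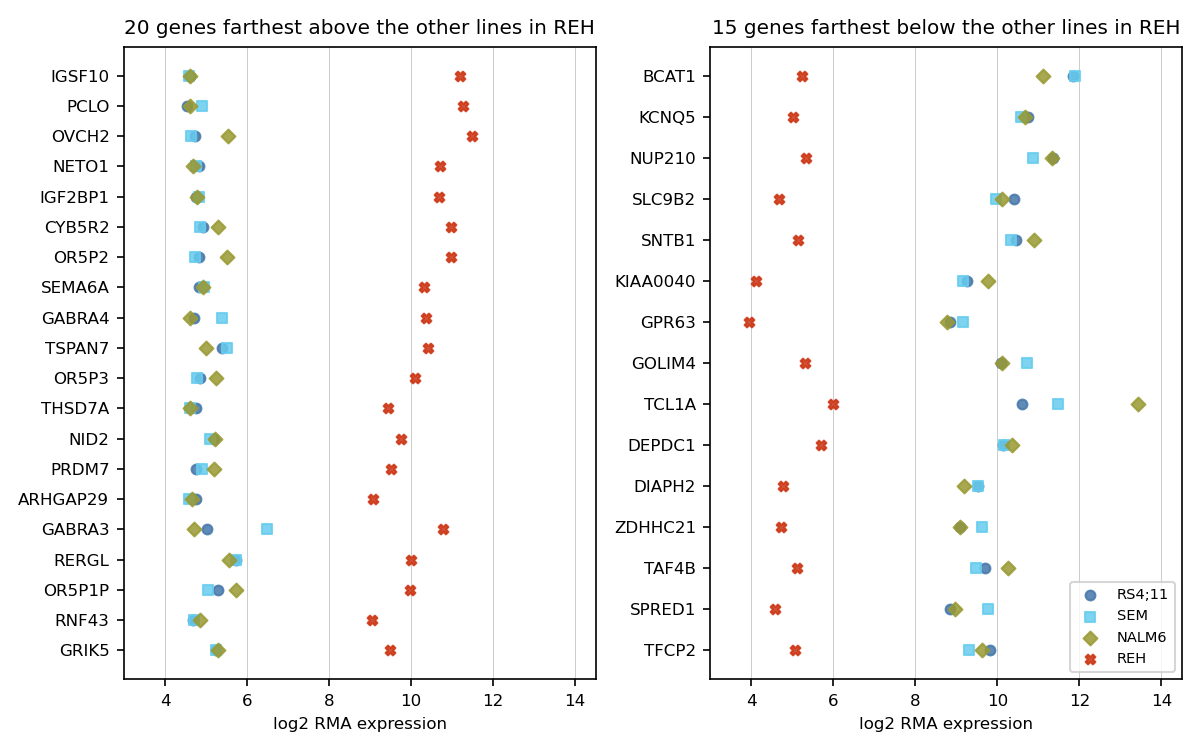
Log2 expression (horizontal axis) of the 20 genes farthest above and the 15 genes farthest below the other lines in REH, ordered by separation, with 1 point per array. REH (red crosses) lies between 9.05 and 11.50 in the left panel and between 3.94 and 5.98 in the right panel, apart from the points of RS4;11, SEM and NALM6 in every gene.

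Genes low in REH were mostly dim in REH and brighter in the other lines, which the rule of separation itself favours. Of the 88 genes separated downward by 4-fold, REH lay below the median of all gene values in 81. The 15 farthest below ranged from 3.94 to 5.98 in REH and from 8.77 to 13.42 elsewhere, and 11 passed limma's test (adjusted p from 0.0245 to 0.0482). KCNQ5, a voltage-gated potassium channel gene, was at 5.01 in REH and at 10.74, 10.57 and 10.67 in RS4;11, SEM and NALM6, a difference of -5.65 (SE 0.12, adjusted p = 0.0245). BCAT1, the cytosolic aminotransferase of branched-chain amino acids, had the largest downward separation, at 5.23 against 11.84, 11.90 and 11.12 (5.89, adjusted p = 0.0482). NUP210, a nuclear pore membrane protein gene, was at 5.32 against 11.35, 10.87 and 11.34 (adjusted p = 0.032). Each of these genes was high in every line but REH.

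Further genes that fell in REH have roles in transport, the cytoskeleton and transcription. SLC9B2, a sodium-proton exchanger gene, was at 4.68 against at least 9.97, and SNTB1, a syntrophin of the dystrophin complex, at 5.13 against at least 10.34. DIAPH2, an actin-nucleating formin, was at 4.76 against at least 9.18, and TAGLN2, an actin-binding transgelin, at 7.03 against at least 11.14. TFCP2, a transcription factor gene, was at 5.05 against at least 9.31. GPR63, an orphan G-protein-coupled receptor gene, was at 3.94, the lowest level of REH among the members farthest below, and at least 8.77 elsewhere. DEPDC1, KIAA0040 and RIOX2 fell as well, with separations of 4.44, 5.06 and 4.20. ZDHHC21, a palmitoyltransferase gene, was at 4.72 against at least 9.09, and its adjusted p moved from 0.0482 to 0.0532 after repeated quantile normalization. SIT1, which encodes an adaptor that binds tyrosine phosphatases in lymphocytes, was at 5.40 against at least 9.16 (adjusted p = 0.0249). TAF4B, a TFIID subunit gene, was at 5.12 against 9.70, 9.47 and 10.27 (adjusted p = 0.0754), and SPRED1, an inhibitor of RAS signalling, at 4.56 against 8.84, 9.77 and 8.95 (adjusted p = 0.11).

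Genes known from other work to be high in ALL with ETV6-RUNX1 were taken as a list of 30, all measured and drawn up with earlier results of these data known, so that the list is not independent evidence of its direction. REH was at least 2-fold above every other line in 12 of 30 and at least 2-fold below in none, against 2.19% and 1.25% of all genes. At 4-fold 7 members were above (0.756% of all genes), and 5 rose by limma's test (0.479% of all genes). The median of REH minus the mean of the other lines was 1.59, against -0.03 over all genes. Without RS4;11, SEM or NALM6 it was 1.43, 1.39 and 1.39.

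The 5 members that rose were PCLO, IGF2BP1, CLIC5, DSC3 and KCNN1. IGF2BP1, an oncofetal protein that binds and stabilizes messenger RNA, was at 10.69 in REH against 4.76, 4.83 and 4.77 (adjusted p = 0.0245). Of 11 measured oncofetal RNA-binding genes it was the 1 at least 2-fold above every other line, against 2.19% of all genes. IGF2BP2 was at 5.71 in REH and 10.10 in RS4;11, and the fetal RNA-binding gene LIN28B at 5.31 in REH and 7.30 in RS4;11. CLIC5, a chloride channel family gene, was at 8.27 against 4.42, 4.43 and 4.47. The potassium channel gene KCNN1 was at 8.25 against at most 5.15. DSC3, the gene of the desmosomal cadherin desmocollin 3, was at 7.72 against 4.36, 4.32 and 4.21 (adjusted p = 0.0249). DSC2 was at 7.07 against at most 6.48, while DSG2, another desmosomal cadherin gene, was as high in SEM (9.46) as in REH (9.27).

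PTPRK, the receptor tyrosine phosphatase kappa, was at 11.56 in REH and at 6.19 in RS4;11, 7.47 in SEM and 5.66 in NALM6. REH was 16.9-fold above SEM, yet the spread among the other lines left an adjusted p of 0.219. PTPRD, of the same family, was at 7.74 against 4.64, 5.09 and 4.56 (adjusted p = 0.098). Of 15 measured receptor-type tyrosine phosphatases, REH was separated upward by 4-fold in these 2, against 0.756% of all genes. PTPRR and PTPRB were dim in REH and NALM6 (at most 5.13) and at 8.17 or more in both t(4;11) lines. ARHGEF4, a guanine nucleotide exchange factor gene, was at 7.98 against at most 5.39 (adjusted p = 0.0697), and BIRC7, the apoptosis inhibitor livin, at 6.50 against at most 5.18 (adjusted p = 0.0699). CBFA2T3, a corepressor gene of the ETO family, was at 8.65 against at most 7.16, and the mineralocorticoid receptor gene NR3C2 at 7.52 against at most 6.02. Neither of the latter passed (adjusted p = 0.175 and 0.407).

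EPOR, the erythropoietin receptor gene, was at 6.43 in REH against 5.53, 5.50 and 5.38 (difference 0.96, SE 0.12, adjusted p = 0.148). REH was highest, but below the median of all gene values. RAG1 and RAG2, also among the 12, are described with the antigen receptor genes. Some members were nearly as high in NALM6 as in REH. TCFL5, a helix-loop-helix factor gene, was at 9.83 in REH and 9.65 in NALM6, and BEST3 at 10.82 and 10.30. Others were not highest in REH. The lymphocyte receptor gene CD27 was at 5.08 in REH and between 5.03 and 5.19 elsewhere, and SOX11 at 7.35 against 8.34 in SEM.

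**Figure D2:**
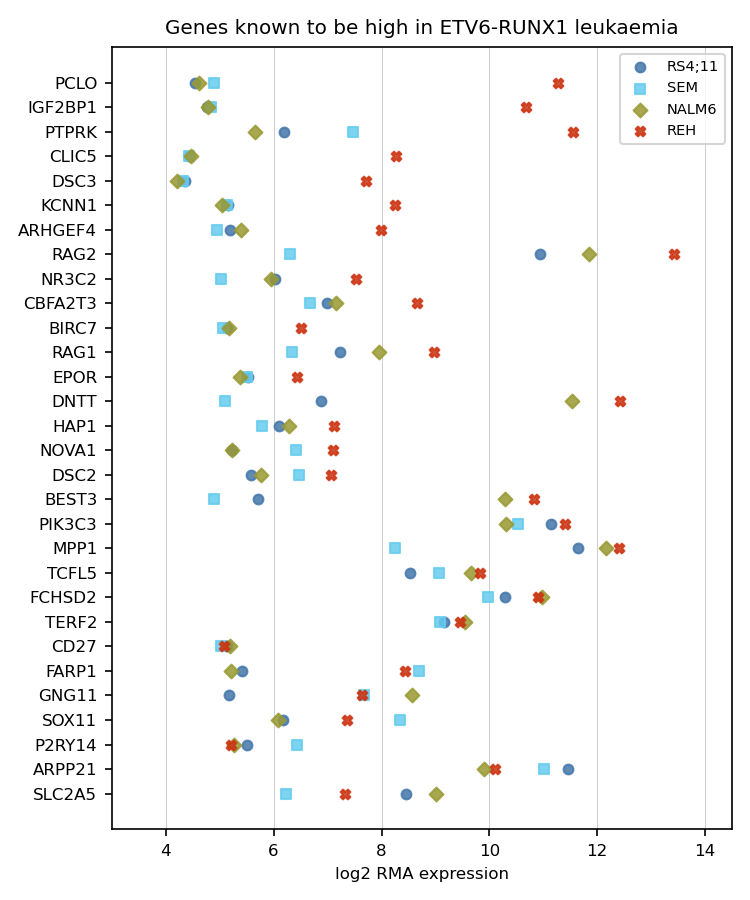
Log2 expression (horizontal axis) of the 30 genes known to be high in ETV6-RUNX1 leukaemia, ordered by REH minus the highest other line, with 1 point per array. REH (red crosses) is the rightmost point by 2-fold or more in the upper 12 genes, and in the lower part, as for CD27 or SLC2A5, it lies among the other lines.

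ETV6 itself is not analysed here. RUNX1 was at 11.24 in REH, between NALM6 (10.97) and the t(4;11) lines (11.98 and 12.03), and its probe set does not separate fusion from normal transcripts. RUNX2 was at 5.43 in REH and 6.10 in NALM6 but at 10.80 and 11.10 in RS4;11 and SEM. None of 15 measured Runt and ETS factors was separated from every other line by 2-fold. ERG and ETS2, both ETS factor genes, were highest in REH, at 11.99 against at most 11.16 and at 12.30 against at most 11.57 (adjusted p = 0.333 and 0.427). Of 20 measured genes near ETV6 on 12p13, REH was above every other line by 2-fold in 1, DUSP16, a phosphatase gene of MAP kinases (7.57 against at most 6.57), and below in none, against 2.19% and 1.25% of all genes. CDKN1B, the cell cycle inhibitor p27 of that region, was at 9.84 against 10.41, 10.37 and 9.99.

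Promoters were searched for the Runt core letters TGTGGT, on either strand, in the window from 250 bases before to 50 after the RefSeq start. The core was found in 11 of 103 genes with a promoter among those 4-fold above (10.7%), in 4 of 69 among those 4-fold below (5.8%) and in 1486 of 14210 over all measured genes (10.5%). Of the 11 members with a promoter among the 12 listed ETV6-RUNX1 genes separated by 2-fold, 0 held it.

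The pre-B receptor, an early antigen receptor made with a surrogate light chain of VPREB1 and IGLL1, signals through tyrosine kinases and adaptors. In REH, 3 of 20 measured members of a list that covers this receptor and the rearrangement of antigen receptor genes lay at least 2-fold above every other line and 2 at least 2-fold below, against 2.19% and 1.25% of all genes. None was called by limma. VPREB1 was at 5.51 in REH and at 11.35, 7.57 and 10.86 in RS4;11, SEM and NALM6 (adjusted p = 0.589). Its partner IGLL1 was at 10.73 in REH, close to RS4;11 (10.78) and NALM6 (10.70), so that 1 component of the surrogate light chain was dim in REH and the other was not. ZAP70, a kinase better known from T cells, was at 5.59 against 9.75, 8.80 and 8.96 (adjusted p = 0.161). LYN, a Src-family kinase of B cells that lies outside this list, was at 7.76 against 11.70, 11.27 and 11.87.

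Upward, RAG2, a subunit of the V(D)J recombinase, was at 13.43 in REH against 10.94, 6.31 and 11.86 (adjusted p = 0.766), and RAG1 at 8.97 against 7.24, 6.33 and 7.95. BLNK, an adaptor that links this receptor to phospholipase signalling, was at 11.74 against 7.15, 5.35 and 10.66, and DNTT, the terminal transferase, at 12.43 against 6.88, 5.11 and 11.54. For each of these genes NALM6 was the line next to REH and SEM the lowest. SYK and BTK, kinases of the same pathway, were in the range of the other lines (10.09 and 10.27 in REH).

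Genes of B-cell regulation picked after their values were seen, other than TCL1A, separated 4-fold downward in REH without passing the test. TCL1A, a coactivator of the kinase AKT, was at 5.98 in REH against 10.59, 11.48 and 13.42 (adjusted p = 0.32). IRF4, an interferon regulatory factor that ends the pre-B stage and drives plasma cells, was at 5.67 against 10.93, 9.74 and 11.49. CYTIP, a regulator of lymphocyte adhesion, was at 5.67 against at least 9.63, and DAPP1, an adaptor downstream of the B-cell receptor, at 5.09 against at least 7.67. These 4 genes were above the median of all gene values in every line but REH. CD200, a surface ligand, went the other way, at 10.42 in REH and 9.18 in NALM6, with 5.13 and 4.74 in the t(4;11) lines. CD24, TCF4 and MME (CD10) were also high in REH (12.19, 11.78 and 12.56) and in NALM6 (12.49, 11.89 and 12.48). In RS4;11 and SEM, TCF4 was at 6.09 and 5.71 and MME at 5.54 and 5.34. CD24 differed, at 10.50 in RS4;11 and 6.33 in SEM.

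Among interferon-stimulated genes, which carry out the antiviral response, REH exceeded every other line by any amount in 18 of 30 measured members, against 25.0% of all genes, and by 2-fold in 4, against 2.19%. The list's median difference was 0.47, with 0.38 to 0.71 when a line was left out and 0.37 with arrays centred on their medians. No member passed limma's test. RSAD2, the antiviral protein viperin, was at 7.83 in REH against 5.37, 5.50 and 5.11 (adjusted p = 0.0765), and IFIH1, a sensor of double-stranded RNA, at 8.53 against 7.28, 6.96 and 7.27 (adjusted p = 0.17). OAS3 and IFI44 were at 8.79 and 8.48 against at most 7.50 and 7.29. The list of TNF receptor family genes of B cells, with some of their ligands, had 2 of 16 measured members at least 2-fold above every other line and none below (2.19% and 1.25% of all genes), and none passed. They were TNFRSF21, a death domain receptor gene, at 10.52 against 7.17, 7.07 and 9.0, and LTA (lymphotoxin alpha) at 7.32 against at most 6.09 (adjusted p = 0.37). REH was highest in 6 of the 16 members and lowest in 4, against 25.0% and 33.7% of all genes. Outside that list, the cytokine gene TNF was at 9.24 against 6.36, 6.34 and 5.53 (adjusted p = 0.168). In each of the genes named here REH stood above all other lines.

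Of 21 measured genes of cytokine receptors and the JAK-STAT5 pathway, 1 lay 2-fold above and 1 below every other line, against 2.19% and 1.25% of all genes, and none was called. PIM1, a survival kinase induced by STAT5, was at 10.05 against 7.93, 8.71 and 7.11 (adjusted p = 0.499), and PIM2 at 9.11 against at most 8.19. PTPN6, the phosphatase SHP-1 that restrains receptor signalling, was at 9.08 against 11.23, 11.33 and 10.64 (adjusted p = 0.242). SOCS2, a feedback inhibitor, was equally high in REH and NALM6 (10.12 and 10.23).

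The glucocorticoid receptor gene NR3C1 was at 10.16 in REH, within the range of the other lines (11.26, 10.14 and 9.77), and its difference from their mean changed sign without RS4;11 (from -0.23 to 0.20). Of 19 measured genes of the receptor and its targets, REH was above every other line by 2-fold in 4 and below in none, against 2.19% and 1.25% of all genes, and none passed. DUSP1, a MAP kinase phosphatase, was at 12.03 against 10.65, 9.40 and 9.60, and TXNIP, a thioredoxin inhibitor, at 12.50 against at most 11.35. The chaperone gene FKBP4 was at 10.40 against at most 9.28, and NR3C2 was the remaining one. The list's median difference was -0.16, so that the members that stood out were not typical of it.

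In the cell cycle list, CCND2, cyclin D2 of the G1 phase, rose in REH, at 6.34 against 4.64, 4.57 and 4.54 (difference 1.75, SE 0.10, adjusted p = 0.0457). It did not pass with arrays centred on their medians (adjusted p = 0.0641). CCND2 was below the median of all gene values in REH too. It was the 1 member called of 21, against 0.479% of all genes called higher. The 9p21 tumour suppressor genes CDKN2A and CDKN2B and their neighbour MTAP, an enzyme of methionine salvage, were dim in REH (4.66, 4.70 and 4.60). CDKN2A and MTAP were as dim in RS4;11 and NALM6 (at most 4.90) but at 9.35 and 9.29 in SEM. The mismatch repair gene MSH6 was at 11.33 in REH against 11.07, 10.86 and 10.23, and none of 11 measured mismatch repair genes was separated by 2-fold. Proliferation genes had a median difference of 0.03 over 25 members, with 0 separated by 2-fold in either direction.

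Of the genes typical of ALL with MLL rearrangement, 25 were measured, with a median difference of -0.95 in REH. REH was lowest in 12 of 25, against 33.7% of all genes, with 3 members at least 2-fold below every other line (1.25% of all genes). No member passed limma's test, and 0 were separated upward. Some members were as low in NALM6 as in REH. S100A10 and MEIS1 were at 4.91 and 4.82 in REH and at 5.08 and 4.92 in NALM6, against 11.20 or more in the t(4;11) lines. The 3 members at least 2-fold below every other line were VLDLR, a lipoprotein receptor gene (5.09 against 9.49, 9.15 and 11.40), ANXA2, the annexin that binds S100A10 (8.72 against 10.51, 11.77 and 10.20), and PBX3, a homeobox cofactor gene (9.82 against 11.70, 10.98 and 11.79). The median difference was -1.77 without NALM6, -0.50 without RS4;11 and -0.61 without SEM.

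Of 22 measured adhesion and homing receptors, 3 lay at least 2-fold below every other line, 0 above, against 1.25% and 2.19% of all genes, and none passed limma's test. ITGAL, the alpha chain of LFA-1, was at 5.45 against 7.33, 10.64 and 6.60, and its beta chain ITGB2 at 7.28 against 8.30, 9.37 and 8.89. ICAM3, a ligand of LFA-1, was at 7.61 against 9.06, 9.07 and 9.21 (adjusted p = 0.0754). CD44, the hyaluronan receptor, was at 5.98 in REH and 6.37 in NALM6, against 11.01 and 11.08. HLA-DQA1, a chain of class II antigen presentation, was at 5.54 against 8.12, 7.19 and 7.10 (adjusted p = 0.401), the 1 member of 14 in that list separated by 2-fold (1.25% of all genes lay so far below).

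Lineage markers outside the B cell included 1 gene that rose. MPO, the myeloperoxidase of neutrophil granules, was at 7.57 in REH against 4.78, 4.79 and 4.75 (difference 2.80, SE 0.10, adjusted p = 0.0249). Of 20 measured myeloid markers, REH was at least 4-fold above every other line in this gene (0.756% of all genes) and at least 4-fold below (0.479%) in LYZ, the lysozyme gene (5.80 against 8.27, 8.50 and 9.65, adjusted p = 0.32). ELANE, the neutrophil elastase gene, was at 5.89 in REH and 5.82 to 6.03 elsewhere, so that MPO was not accompanied by this granule gene. TRAT1, a T-cell receptor adaptor gene, was at 6.64 against at most 5.20 (adjusted p = 0.168).

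**Figure D3:**
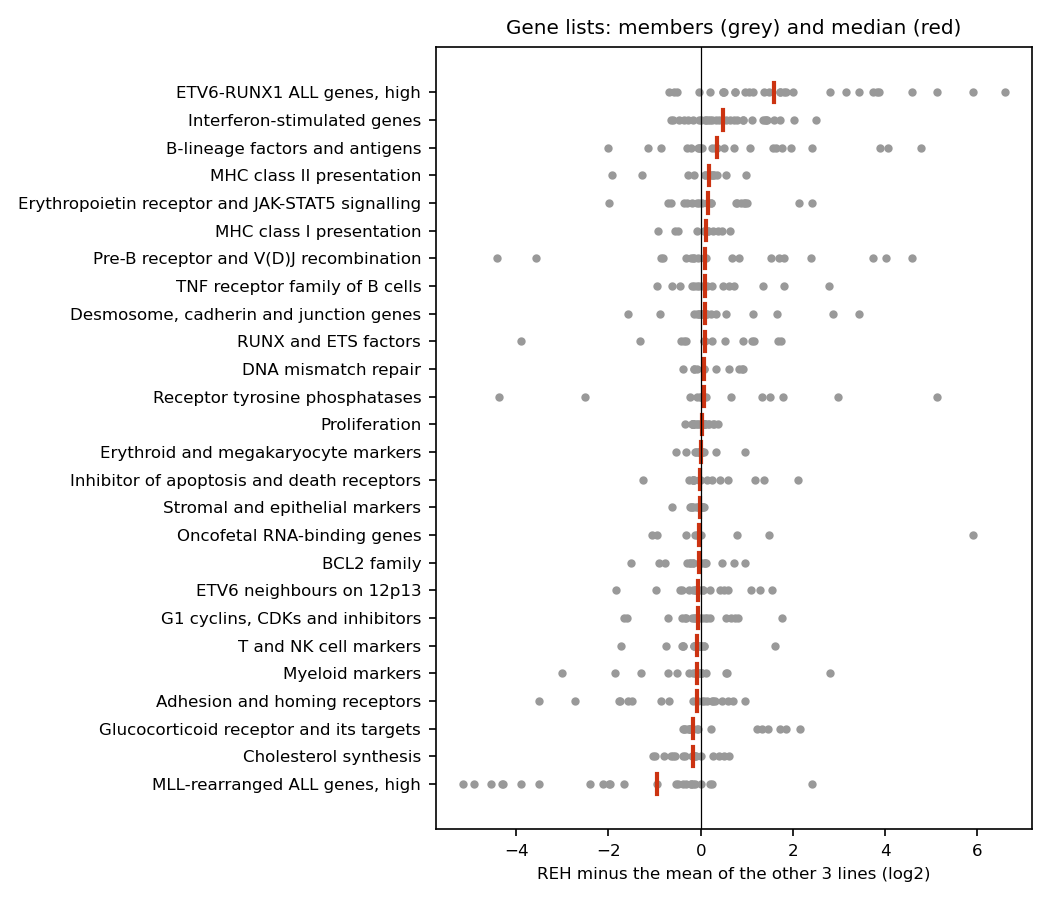
REH minus the mean of the other 3 lines (log2, horizontal axis) for each measured member of the 26 gene lists (grey points) and their medians (red bars), ordered by median. The list of ETV6-RUNX1 genes has the highest median (1.59) and that of MLL-rearranged genes the lowest (-0.95), while most lists centre near 0 with single members far to either side.

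Genes that stood apart in REH were in places neighbours on a chromosome, as the RefSeq gene order shows. CYB5R2, OVCH2, OR5P1P, OR5P2 and OR5P3 follow each other on chromosome 11, and all 5 were among the 20 genes farthest above. CYB5R2, a cytochrome b5 reductase gene, was at 10.98 in REH and at 4.92, 4.86 and 5.28 in RS4;11, SEM and NALM6 (adjusted p = 0.0289). OVCH2, which encodes a secreted protease of the ovochymase family, was at 11.50 against 4.72, 4.64 and 5.53 (adjusted p = 0.0546). The olfactory receptor genes OR5P2 and OR5P3 were at 10.97 and 10.10, against at most 5.50 and 5.24 (adjusted p = 0.0517 and 0.0345), and the pseudogene OR5P1P was at 9.96. With dim genes left out OVCH2, OR5P2 and OR5P1P passed too (adjusted p = 0.0452, 0.0444 and 0.0478). NALM6 was the highest of the other lines for each of the 5, at 5.24 to 5.74.

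The block ended sharply on both sides. The next gene before it, PPFIBP2, was at 6.66 in REH and within the range of the other lines (5.70 to 7.65). The next gene after it, OR5E1P, was at 5.20 in REH against at most 4.77, and OR10A6 beyond was at 4.31 against 4.32 to 4.44. Olfactory receptor genes of 1 subfamily resemble each other in sequence, so that probes for OR5P1P, OR5P2 and OR5P3 may read each other, which was not tested.

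The sequences just before the starts of the block's genes show how unlike they are. From RefSeq (GRCh38.p14), the 250 bases before the start are printed for the 3 genes with an entry, all on the minus strand, with any Runt core in capitals.
CYB5R2: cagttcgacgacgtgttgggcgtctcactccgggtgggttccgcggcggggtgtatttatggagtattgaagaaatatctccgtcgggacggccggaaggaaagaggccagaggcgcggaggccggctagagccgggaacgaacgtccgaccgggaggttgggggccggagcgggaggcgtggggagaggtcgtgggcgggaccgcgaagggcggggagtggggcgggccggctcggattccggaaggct
OVCH2: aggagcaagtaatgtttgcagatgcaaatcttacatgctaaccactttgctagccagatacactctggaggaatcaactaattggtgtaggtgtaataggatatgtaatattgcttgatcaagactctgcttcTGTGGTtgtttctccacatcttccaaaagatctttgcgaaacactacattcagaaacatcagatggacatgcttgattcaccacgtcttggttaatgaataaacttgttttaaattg
OR5P2: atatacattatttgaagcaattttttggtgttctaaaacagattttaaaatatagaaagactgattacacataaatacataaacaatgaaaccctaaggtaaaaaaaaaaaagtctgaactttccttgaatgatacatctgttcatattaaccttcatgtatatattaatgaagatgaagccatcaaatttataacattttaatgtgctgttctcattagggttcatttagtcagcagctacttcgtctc
They lie at chr11:7673501-7673750, chr11:7706478-7706727 and chr11:7796943-7797192. Over the window of 250 bases before to 50 after the start, CYB5R2 is rich in G and C (67.7%, 35 CpG pairs), OVCH2 (38.0%, 2 pairs) and OR5P2 (32.0%, 4 pairs) are poor in them, and the median over promoters of measured genes is 63.0% with 23 pairs. A single Runt core was found, in OVCH2 at position -117 from the start.

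**Figure D4:**
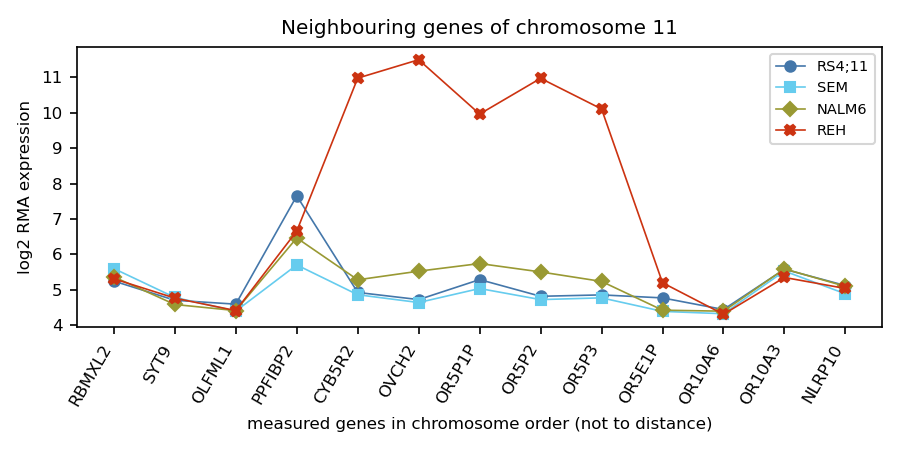
Log2 expression (vertical axis) of neighbouring measured genes in chromosome order (horizontal axis, not to distance), with 1 line per array. REH (red) rises to between 9.96 and 11.50 over 5 adjacent genes and returns to the level of the other lines on both sides.

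On chromosome 3 many genes were lower in REH by a small and even amount. Among genes that exceeded the median of all gene values in any line, REH was below every other line in 47.7% of 579 genes on chromosome 3, and in 32.6% of such genes overall. Chromosome 3 was followed from end to end in steps of 25 genes, and in 6 steps in a row the median difference lay between -0.95 and -0.68. This stretch, from EIF1B to ATXN7, was picked by its values and is given as a description. It holds 150 genes, of which REH was lowest in 123 (82.0%), with a median difference of -0.81, or 1.75-fold. The median was -0.78 against RS4;11, -0.81 against SEM and -0.81 against NALM6, so that the values against each line lay close together. Over the other 429 genes of chromosome 3 the median was -0.04, with REH lowest in 35.7%.

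The differences in the stretch were mostly below 2-fold, with 17 of 150 genes at least 2-fold below every other line (2.23% of such genes overall), 3 at least 2-fold above (3.4%) and 1 called by limma. WDR82, the gene that hosts MIRLET7G, was at 10.02 in REH against 11.01, 10.97 and 10.92. It opens a run of 29 such genes in a row in which REH was lowest, which ends at RPP14 (9.0 against at least 9.71). Beyond it PDHB and KCTD6 were still lowest in REH (8.47 and 5.66 against at least 9.22 and 6.37). CFAP20DC and FHIT, adjacent to each other and next after PDHB (difference -1.02) among such genes, stood far above the other lines. They lie where the low values end, not among them. The genes after them in the stretch had differences of 1.51 (PTPRG), -0.10 (ID2B), 0.25 (THOC7) and 0.05 (ATXN7). ATXN7 is the last gene of the stretch only because it closes a step. FHIT, a diadenosine hydrolase gene at a fragile site, was at 8.78 in REH against 4.80, 4.80 and 4.94, and CFAP20DC at 8.92 against 5.54, 5.13 and 5.64. FHIT passed limma's test (adjusted p = 0.0249) and CFAP20DC did not (adjusted p = 0.0652). In the same way EIF1B is its first gene only because it opens a step. The step before, from CNOT10 to MYRIP, had a median difference of -0.29 and was counted with the rest of chromosome 3. REH was lowest in 16 of its 25 genes (64.0%, against 32.6% of all such genes), and 5 lay at least 2-fold below every other line. Within that step, the small nucleolar RNA genes SNORA6 and SNORA62 were at 7.35 and 7.52 against at least 8.83 in both.

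**Figure D5:**
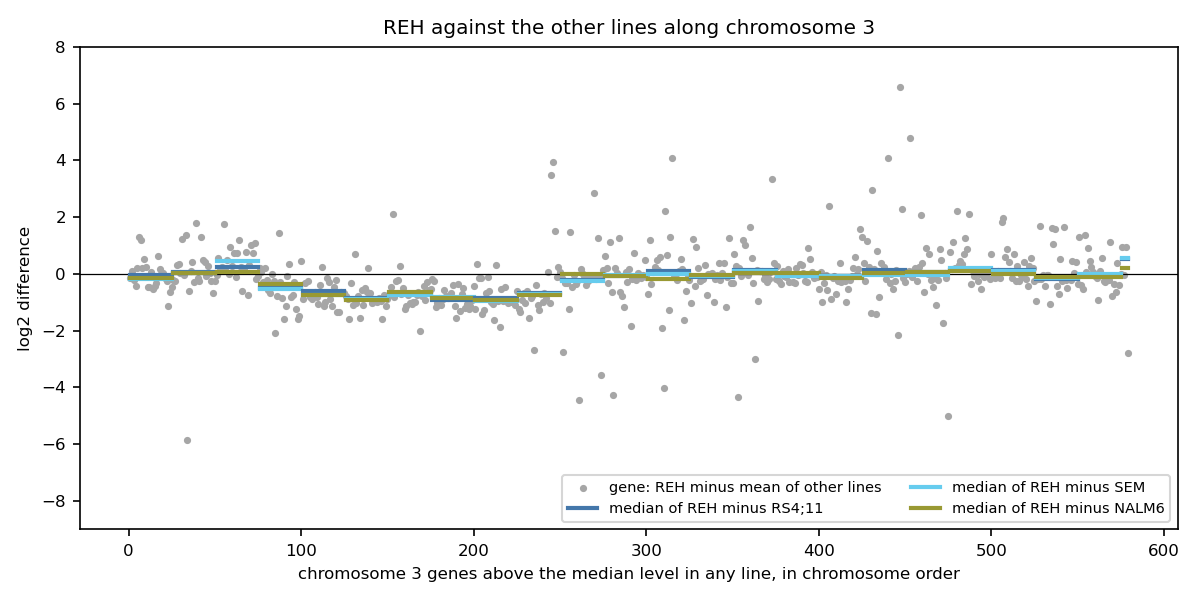
Log2 difference (vertical axis) of REH from the other lines for 579 genes of chromosome 3 in chromosome order (horizontal axis). Grey points are genes (REH minus the mean of the other lines) and coloured bars are medians over steps of 25 genes against each other line, which lie together near -0.8 over the stretch from EIF1B to ATXN7 and near 0 over most of the rest.

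Chromosomes 7 and 21 stood out upward, with median differences of 0.25 over 475 genes and 0.16 over 105 genes, and REH was highest in 42.1% and 42.9% (27.8% of such genes overall). On chromosome 7 the median was 0.37 against SEM, 0.17 against RS4;11 and 0.14 against NALM6, and on chromosome 21 it was 0.20, 0.17 and 0.14. Chromosome 13 had a median of 0.19, which came from SEM (0.58), with 0.01 against RS4;11 and against NALM6. Among other neighbours, TERT, the telomerase catalytic subunit, was the last of 3 genes in a row on chromosome 5, counted over genes above the median of all gene values in any line, that lay at least 2-fold above every other line. TERT was at 9.36 against 7.83, 7.99 and 8.21 (adjusted p = 0.178). PCDH10 and PCDH18, protocadherin genes of another such run of 3 on chromosome 4, were at 8.53 against at most 5.10 and at 10.19 against at most 7.33. PCDH10 rose (adjusted p = 0.0308) and PCDH18 did not pass (adjusted p = 0.451).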

How the data were processed

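Total RNA of 4 cell lines, 1 array each, was hybridised to Affymetrix whole-transcript arrays. The deposited values are log2 signals per probe set, a scale read from their range (3.44 to 14.27). RMA and Partek are named without versions in the submitters' processing notes, and the annotation build is not given in the sources used here. Of 32968 probe sets, 19310 had 1 gene symbol, 1752 several and 11906 none. The probe set with the highest mean was kept for each of 18377 genes, 685 of which had several. Entrez identifiers matched RefSeq (GRCh38.p14) for 19279 probe sets. REH was compared with the mean of the other lines in limma 3.58.1 (R 4.3.3), two-sided, with Benjamini-Hochberg adjustment over all genes. The fit had 2 residual degrees of freedom and a median SE of 0.157, and the number of arrays limits its precision. It was tested on simulated data in which REH varied like the other lines, so that this assumption was not checked. Alternatives were other scalings, probe set rules, filters, variance models and leaving out a line. The members and the gene lists were chosen with earlier results of these data known. Genes were named from among the 20 farthest above, the 15 farthest below and the 8 smallest p-values in each direction. Also drawn on were up to 4 members of each list with the largest differences, and RUNX1, NR3C1, MSH6, CDKN2A, CDKN2B and MTAP. Not all genes of these groups appear in the text. Other genes, among them those named for their place on a chromosome, were chosen after their values were seen.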

Additional observations from a re-analysis of the deposited data

Results flagged for a closer look

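Probe sets without exactly 1 gene symbol were not used for the comparisons. Among 13658 of them, 21 (0.154%) lay at least 4-fold above every other line in REH and 12 (0.0879%) at least 4-fold below, against 0.756% and 0.479% of genes. The groups of 3 lines and 1 line are too small for a test of single arrays that stand apart.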

How the results depend on the processing

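The counts called by limma (88 higher, 31 lower) fell to 0 and 0 without any 1 of the other lines. They did so too without moderation of the variances (smallest adjusted p 0.157, 1650 genes at an unadjusted p under 0.05). With t(4;11) as a covariate the calls were also lost, but the comparison was then REH against NALM6 alone. Its spread came from RS4;11 and SEM, so that it does not adjust the comparison with all 3 lines. Over all probe sets 20 were lower, and at an adjusted p under 0.1 the counts were 149 and 56. Leaving out a line can only keep or raise the 4-fold separation counts (139 above, 88 below), because separation is taken from the nearest line. They then ranged from 179 to 223 and from 104 to 182. They were 402 and 229 at 2-fold, 58 and 54 at 8-fold, and 296 and 209 against the mean of the other lines. Leaving out a line changed the sign of differences that limma did not call, with ranges from -0.54 to 0.20 for NR3C1, -1.86 to 0.78 for IGF2BP2, -0.015 to 1.05 for IGLL1, -0.40 to 0.58 for PPFIBP2, -0.21 to 0.33 for SYK, -0.10 to 0.0059 for CD14, -0.078 to 0.0040 for CD27, -0.037 to 0.068 for ELANE and -0.058 to 0.038 for EPCAM. Without dim genes SHOX2 lost its call (adjusted p = 0.0547). Centring arrays gave -0.11 for ELANE, -0.072 for CD34, -0.054 for PPFIBP2 and -0.0021 for SYK with the sign turned, and repeated quantile normalization -0.066 for ELANE, 0.0074 for EPCAM and -0.040 for PPFIBP2. Centring arrays on their medians moved the median over all genes by -0.11, and the chromosome 3 stretch, an alternative chosen after seeing the data, ranged from -0.92 to -0.79. No paired analysis was possible because each array is of a different line and REH has 1 array. Replicate numbers were given in accession order and mark no pairs.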
